A study of Mus musculus with 6 samples.

Results

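Homeostatic astrocyte transport and metabolism genes were examined in whole brain of mice that lack Pofut1 in the Nestin lineage. The set has 10 genes, and every probe set annotated with exactly 1 gene symbol from it was taken, which gave 31 of the 45037 probe sets tested. The genes are Slc1a2, Slc1a3 and Glul for glutamate uptake and conversion, Gpc5 at the cell surface, Gja1 and Gjb6 for gap junctions, Kcnj10, Slc4a4 and Atp1b2 for ion transport, and Aldh1l1 for folate metabolism. Pofut1 encodes the enzyme that places O-linked fucose on EGF-like repeats, among others those of Notch receptors. The series asks how its loss affects self-renewal and differentiation of adult neural progenitors.

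Total RNA from brain was measured on 6 arrays, 1 sample each. All mice were C57/Bl6 and aged 2 months. The 2 Pofut1 knockout samples carried Nestin cre and Pofut1 flox/flox. The 2 NestinCre control samples carried Nestin cre and wild type Pofut1, and the 2 Flox control samples carried Pofut1 flox/flox with no Cre named. Knockout thus shares the transgene with the first control and the floxed alleles with the second. Nestin-Cre transgenes drive Cre in neural progenitors, so that neurons, astrocytes and oligodendrocytes descend from cells exposed to it. The labels do not say whether a sample came from 1 animal or several, so the spread behind each p-value is that of these samples and may include technical spread.

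Astrocytes clear glutamate from synapses through the sodium-driven transporters encoded by Slc1a2 and Slc1a3, and glutamine synthetase, encoded by Glul, turns it into glutamine, which is passed back to neurons. They also take up potassium, move bicarbonate and share ions and metabolites through gap junctions made of connexins. These genes are widely used to mark mature, resting astrocytes. In whole brain, fewer astrocytes and less RNA per astrocyte cannot be told apart.

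The correlation between arrays, taken over every probe set, was 0.993 to 0.995 within a group and 0.985 to 0.995 between groups. Xist and the Y-linked Eif2s3y split the arrays into 2 from males, knockout replicate 1 and NestinCre control replicate 2, and 4 from females. Differences within each sex are therefore given beside the main ones. The female value is knockout replicate 2 minus the mean of NestinCre control replicate 1 and both Flox control arrays. The male value is knockout replicate 1 minus NestinCre control replicate 2, with no Flox control array. Sex and the mix of controls thus cannot be told apart in these values. Fits with the female arrays alone weight the control groups equally instead. Pofut1 had intensities of 610 and 696 in knockout, 918 and 874 in NestinCre control and 992 and 899 in Flox control at its brightest probe set. Its log2 difference was -0.50 (SE 0.08), with a limma adjusted p of 0.211. Whether its probe sets fall in the floxed exons was not stated in any label or table used.

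Slc1a2, Slc1a3 and Gpc5 were lower in knockout brain than in both controls. The other 7 genes differed by -0.22 to 0.05 on the log2 scale at their brightest probe sets, and none of their probe sets reached an unadjusted p under 0.05. No probe set of the 10 genes passed the limma test after adjustment over all 45037, where adjusted p ran from 0.089 to 1 and 0.0155% of all probe sets passed. At an unadjusted p under 0.05, 8 of the 31 probe sets (25.8%) were lower and 0 higher, against 5.08% lower and 6.04% higher among all probe sets. All 8 belonged to the 3 named genes. Both knockout arrays lay below all 4 controls at 10 of the 31 probe sets (32.3%), against 9.19% of all probe sets, and above all 4 controls at 0 of the 31, against 8.77%. Probe sets of 1 gene share transcripts and are not independent. The 10 genes were also chosen with earlier results of these data known, so these shares describe the set and test nothing. The set is also brighter, with 28 of the 31 above the median of all probe sets. The median log2 difference over the brightest probe sets of the 10 genes was -0.09, with 8 of 10 below 0. It was -0.18 without knockout replicate 2, -0.15 without NestinCre control replicate 2 and -0.05 without NestinCre control replicate 1. This stands against a median of -0.021 and 59.3% below 0 over the brightest probe sets of all 18193 genes.

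**Figure D1:**
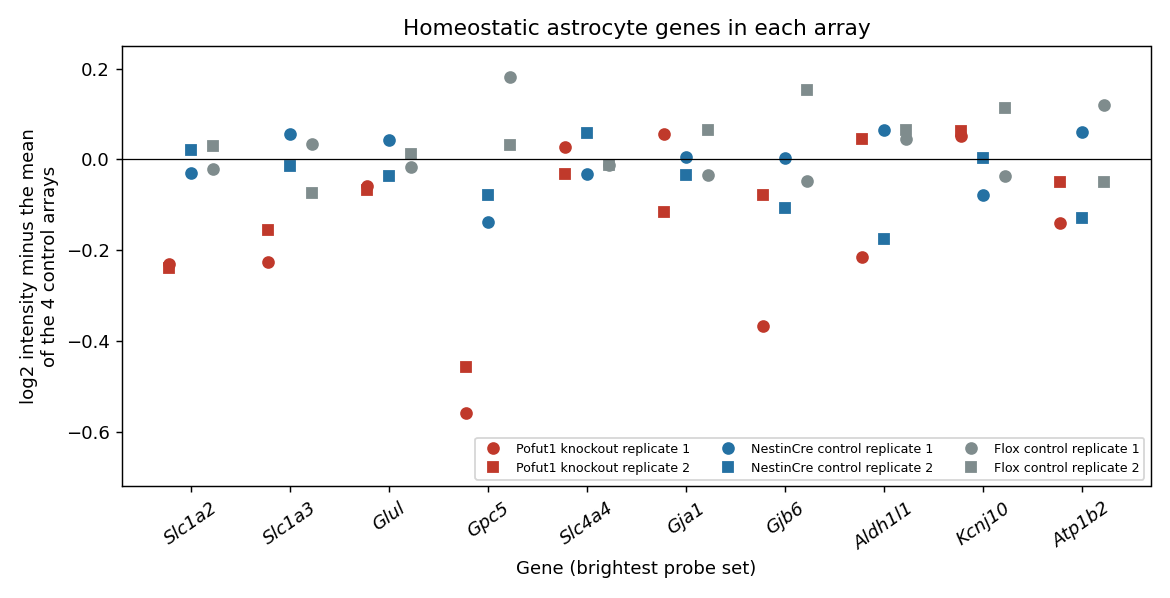
Level of the brightest probe set of each gene on each array, as log2 intensity minus the mean of the 4 control arrays. Circles are replicate 1, squares replicate 2. Both knockout arrays lie below all 4 controls for Slc1a2, Slc1a3, Glul and Gpc5, and not for the other 6 genes.

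Slc1a2 encodes the main glutamate transporter of forebrain astrocytes. At its brightest probe set it had intensities of 5970 and 5910 in knockout, 6860 and 7060 in NestinCre control and 6900 and 7140 in Flox control. Both knockout arrays were the lowest of the 6, and the control groups overlapped. The means were 5940 ± 40.7 in knockout, 6960 ± 148 in NestinCre control and 7020 ± 169 in Flox control (SD, n = 2 each), so that knockout stood at 85.0% of the controls. The log2 difference was -0.23 (SE 0.05), with a limma adjusted p of 0.241. Within females it was -0.24 and within males -0.24.

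The gene's dimmer probe sets gave larger differences. Probe set 1451627_a_at had 453 and 509 in knockout, 639 and 695 in NestinCre control and 686 and 844 in Flox control, a log2 difference of -0.57 (SE 0.11). At 1439940_at the intensities were 795 and 668 in knockout, 1220 and 997 in NestinCre control and 824 and 978 in Flox control (-0.45, SE 0.13). Knockout arrays were again the lowest at both, although at 1439940_at knockout replicate 1 came close to Flox control replicate 1. Probe set 1459014_at varied within every group, with 177 and 121 in knockout, 220 and 339 in NestinCre control and 132 and 262 in Flox control, and its 95% interval of -1.55 to 0.30 includes 0. The remaining one, 1433094_at, was dimmer than the median probe set, with 66.0 and 68.0 in knockout, 71.6 and 63.5 in NestinCre control and 64.8 and 67.0 in Flox control (0.01, SE 0.07).

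Slc1a3 encodes the glutamate transporter of Bergmann glia, radial glia and astrocytes, and is also expressed by adult neural stem cells. Its brightest probe set read 4940 and 5170 in knockout, 6000 and 5710 in NestinCre control and 5910 and 5500 in Flox control. Knockout was lowest, at 87.6% of control level. The log2 difference was -0.19 (SE 0.06; limma adjusted p = 0.363). It lost its unadjusted call with the female arrays alone (-0.18), when knockout replicate 1 was left out (-0.16), and when replicate 1 of either control was (-0.17 each). At 1443749_x_at the intensities were 1500 and 1530 in knockout, 2180 and 2120 in NestinCre control and 2740 and 2530 in Flox control. The 3 groups did not overlap there, and the log2 difference of -0.65 (SE 0.05; limma adjusted p = 0.089) had the smallest p among the 31 probe sets. The suffix _x_at marks probe sets on these arrays in which some probes also match other sequences. Probe set 1426340_at, without that suffix, read 959 and 1160 in knockout, 1460 and 1510 in NestinCre control and 1740 and 1690 in Flox control (-0.60, SE 0.09). Again the groups stood apart, and knockout reached 66.0% of the controls. Probe set 1426341_at differed by -0.33 (SE 0.09), with 323 and 342 in knockout, 430 and 447 in NestinCre control and 364 and 441 in Flox control.

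Another pair of Slc1a3 probe sets did not share this pattern. At 1440491_at the values were 277 and 269 in knockout, 294 and 362 in NestinCre control and 215 and 275 in Flox control, and the difference was -0.04 (SE 0.14). At 1439072_at knockout replicate 2 was the highest array, with 168 and 254 in knockout, 195 and 182 in NestinCre control and 148 and 145 in Flox control (0.31, SE 0.17). No source used here states which part of the transcripts each probe set covers. In the 4 lower probe sets the female difference ran from -0.69 to -0.16 and the male difference from -0.65 to -0.21. The female and male differences were 0.06 and -0.39 at 1440491_at, and 0.66 and -0.12 at 1439072_at. NestinCre control itself differed from Flox control by 0.42 at 1440491_at and 0.36 at 1439072_at. Only the female values use Flox control arrays, so sex and control type cannot be told apart there.

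Gpc5 encodes a glypican, a heparan sulfate proteoglycan anchored to the cell surface, and had 1 probe set. It read 846 and 901 in knockout, 1130 and 1170 in NestinCre control and 1410 and 1270 in Flox control. The 3 groups did not overlap, with knockout lowest and Flox control highest. Means were 874 ± 39.0 in knockout, 1150 ± 30.0 in NestinCre control and 1340 ± 93.6 in Flox control (SD, n = 2 each), and knockout stood at 70.3% of the controls. The log2 difference was -0.51 (SE 0.07; limma adjusted p = 0.167), or -0.49 within females and -0.47 within males. Each male value compares 1 array with 1.

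**Figure D2:**
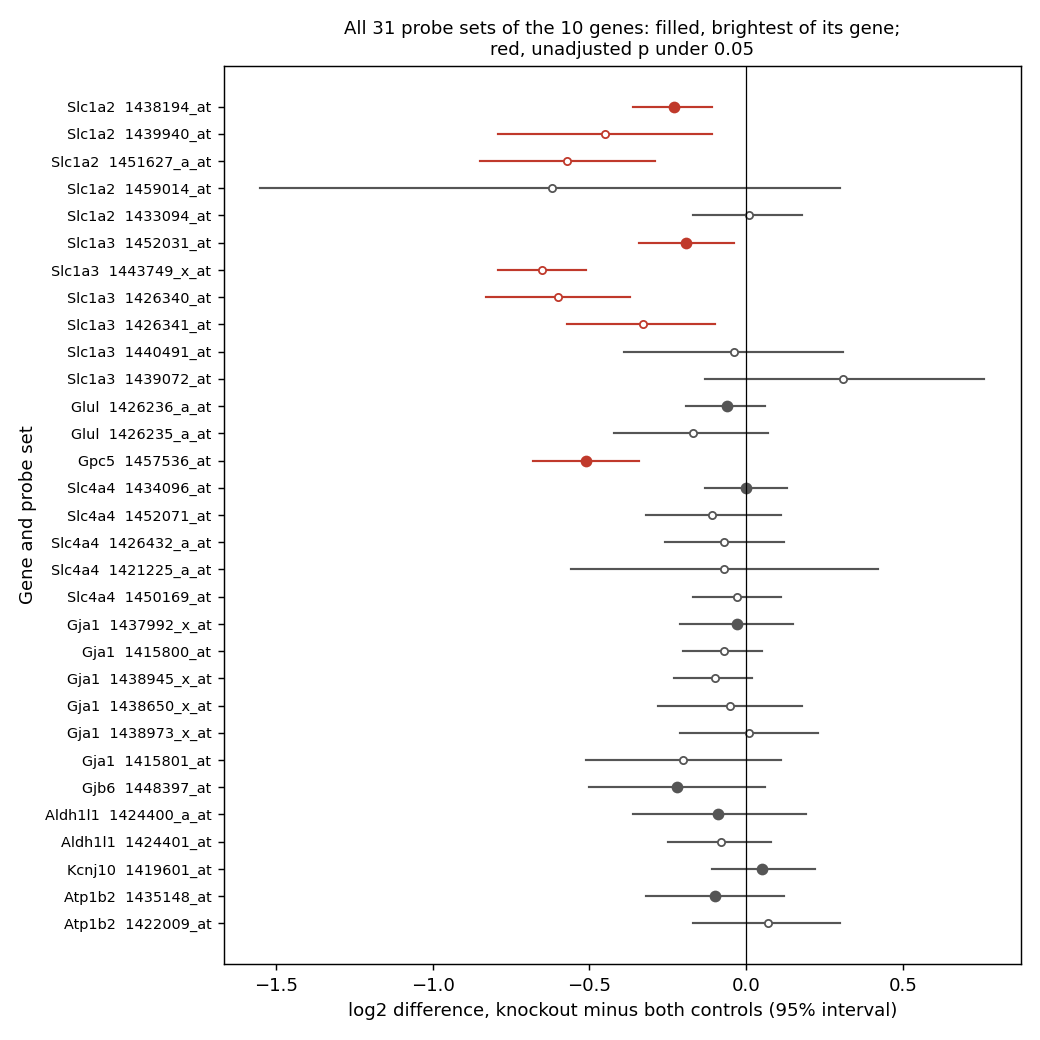
Log2 difference of knockout minus both controls for the 31 probe sets (points) with the 95% interval of the limma fit (lines). Red marks the 8 probe sets with an unadjusted p under 0.05, which are 3 of 5 for Slc1a2, 4 of 6 for Slc1a3 and the 1 for Gpc5.

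The stretches of 250 bases before the annotated start of these 3 genes are shown because they are the genes that were lower in knockout. They are RefSeq sequences of GRCm38.p6, 5′ to 3′ on the gene's strand, and capitals mark a match to the STAT letters TTCNNNGAA. The start listed lies inside the annotated gene, 48199 bases from its 5′ end for Slc1a2 and 14 bases for Gpc5. For Slc1a3 it lies at the gene's first base.
Slc1a2 (chr2:102706188-102706437, plus strand): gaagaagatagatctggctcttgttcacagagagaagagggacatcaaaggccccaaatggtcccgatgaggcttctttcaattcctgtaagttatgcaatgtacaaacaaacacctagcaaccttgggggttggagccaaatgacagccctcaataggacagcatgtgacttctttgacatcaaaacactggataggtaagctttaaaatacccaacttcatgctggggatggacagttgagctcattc
Slc1a3 (chr15:8710808-8711057, minus strand): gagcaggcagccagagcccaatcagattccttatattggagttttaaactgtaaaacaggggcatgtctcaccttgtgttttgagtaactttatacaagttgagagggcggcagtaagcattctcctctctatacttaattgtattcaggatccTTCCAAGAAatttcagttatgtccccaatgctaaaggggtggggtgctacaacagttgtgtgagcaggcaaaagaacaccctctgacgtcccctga
Gpc5 (chr14:115091965-115092214, plus strand): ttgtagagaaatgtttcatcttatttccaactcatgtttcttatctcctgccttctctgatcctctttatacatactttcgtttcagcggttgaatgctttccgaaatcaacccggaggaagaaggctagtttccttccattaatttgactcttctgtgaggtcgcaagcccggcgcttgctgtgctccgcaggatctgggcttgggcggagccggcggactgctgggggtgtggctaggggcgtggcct

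The windows searched ran from 250 bases before to 50 after the start, on both strands, and 10 of them matched 9 of the 10 genes. The letters GTGGGAA, the core bound by RBPJ, the DNA-binding partner of Notch, were in 0 of the 10 and in 6.38% of all 32851 windows. STAT letters were in 1 of the 10, that of Slc1a3, 96 to 88 bases before the start, and in 8.30% of all. The NFI palindrome, TTGGC and GCCAA with 5 bases between them, was in 0 of the 10 and in 0.0365% of all. A match is a string of letters and was not tested as a binding site.

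Glul, the glutamine synthetase gene, differed little at its brightest probe set. Intensities were 6490 and 6430 in knockout, 6950 and 6580 in NestinCre control and 6660 and 6790 in Flox control, a log2 difference of -0.06 (SE 0.05) with a 95% interval of -0.19 to 0.06. Both knockout arrays were the lowest, by a margin smaller than the spread between the controls. Its other probe set, 1426235_a_at, read 1670 and 1960 in knockout, 2100 and 2120 in NestinCre control and 1840 and 2110 in Flox control (-0.17, SE 0.09), and the groups overlapped.

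The connexin genes Gja1 and Gjb6 encode the gap junction channels of astrocytes. Gja1 read 5770 and 5110 in knockout, 5540 and 5420 in NestinCre control and 5400 and 5810 in Flox control at its brightest probe set, 1437992_x_at. The suffix _x_at is the one described for Slc1a3. Knockout replicate 2 was the lowest array there, while replicate 1 lay among the controls. The difference was -0.03 (SE 0.07), with an interval of -0.21 to 0.15, and the other 5 Gja1 probe sets lay between -0.20 and 0.01. The highest of these, 1438973_x_at, read 1650 and 1520 in knockout, 1620 and 1610 in NestinCre control and 1650 and 1400 in Flox control. At 1415800_at both knockout arrays, with 4800 and 4690, were below the 4960 and 4870 of NestinCre control and the 5200 and 4960 of Flox control, a log2 difference of -0.07. Gjb6 had 1 probe set, with 1270 and 1550 in knockout, 1640 and 1520 in NestinCre control and 1590 and 1820 in Flox control. Knockout replicate 1 was the lowest array and replicate 2 lay among the controls, so the difference of -0.22 (SE 0.11) has an interval of -0.50 to 0.06.

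Among the ion transport genes, Kcnj10 encodes the inwardly rectifying potassium channel of astrocytes and oligodendrocytes. It read 3160 and 3190 in knockout, 2890 and 3060 in NestinCre control and 2990 and 3310 in Flox control, all within 1 range, with a difference of 0.05 (SE 0.06; interval -0.11 to 0.22). Slc4a4, a sodium bicarbonate cotransporter, read 4800 and 4620 in knockout, 4610 and 4910 in NestinCre control and 4670 and 4670 in Flox control. Its difference was 0.00 (SE 0.05; interval -0.13 to 0.13), and its other 4 probe sets lay between -0.11 and -0.03. The brightest of those, 1452071_at, read 2090 and 1960 in knockout, 2220 and 2330 in NestinCre control and 1920 and 2250 in Flox control. Probe set 1426432_a_at read 477 and 521 in knockout, 535 and 604 in NestinCre control and 474 and 492 in Flox control. Its difference was 0.06 within females and -0.34 within males. NestinCre control differed from Flox control by 0.24 at this probe set, and only the female value uses Flox control arrays. Values of 168 and 230 in knockout, 180 and 241 in NestinCre control and 187 and 224 in Flox control were read at 1421225_a_at. At the dim 1450169_at they were 50.1 and 47.6 in knockout, 51.2 and 49.3 in NestinCre control and 50.7 and 48.4 in Flox control. Knockout overlapped Flox control at each of these. Atp1b2, a beta subunit of the sodium pump also known as an adhesion molecule on glia, read 2770 and 2950 in knockout, 3190 and 2800 in NestinCre control and 3330 and 2950 in Flox control. The groups overlapped (-0.10, SE 0.09; interval -0.32 to 0.12), and its dimmer probe set 1422009_at read 1180 and 1250 in knockout, 1140 and 1210 in NestinCre control and 1050 and 1250 in Flox control (0.07, SE 0.09).

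Aldh1l1, an enzyme of folate metabolism used to identify astrocytes as a class, read 816 and 974 in knockout, 992 and 839 in NestinCre control and 978 and 988 in Flox control. Replicates within knockout and within NestinCre control differed as much as any groups did, and the difference was -0.09 (SE 0.11; interval -0.36 to 0.19). A second probe set was dimmer than the median of all. For these 7 genes the intervals at the brightest probe set reach down to between -0.50 and -0.11, so decreases smaller than that are not excluded by these arrays.

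Each control was also compared alone, because it differs from knockout in a different way. The 2 comparisons share the knockout arrays. Against NestinCre control, which differs in the floxed alleles, 8 of the 31 probe sets were lower and 0 higher at an unadjusted p under 0.05, against 2.61% lower and 3.20% higher among all probe sets. They were 3 for Slc1a2, 4 for Slc1a3 and the 1 for Gpc5. Slc1a2 differed by -0.23 (SE 0.05), Slc1a3 by -0.21 (SE 0.07) and Gpc5 by -0.40 (SE 0.08) at their brightest probe sets. The largest difference of the 31 in size, -0.90 (SE 0.41), was at the variable Slc1a2 probe set 1459014_at and did not reach the unadjusted threshold. Limma adjusted p was 0.256 or more for all 31, with 0% of all probe sets passing, and without knockout replicate 1 the count was 5.

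Against Flox control, which differs in Cre, 6 of the 31 were lower and 0 higher at an unadjusted p under 0.05, against 7.65% lower and 8.29% higher among all probe sets. They were a pair each for Slc1a2 and Slc1a3, the 1 for Gpc5 and the Gja1 probe set 1438945_x_at. Slc1a2 differed by -0.24 (SE 0.05), Slc1a3 by -0.17 (SE 0.07) and Gpc5 by -0.62 (SE 0.08) at the brightest probe sets, of which that of Slc1a3 did not reach the unadjusted threshold. Limma adjusted p was 0.0822 or more for all 31, and 0.00444% of all probe sets passed. The Gja1 probe set, 1438945_x_at, read 4540 and 4280 in knockout and 4980 and 4920 in Flox control (-0.17, SE 0.06). The Flox control arrays also carried more pituitary transcript. The summed intensity of 6 pituitary genes was 717 and 641 in knockout, 635 and 551 in NestinCre control and 1002 and 2235 in Flox control, and its part in these differences was not tested.

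Between the controls, 2 of the 31 probe sets were lower in NestinCre control than in Flox control at an unadjusted p under 0.05 (5.22% of all were lower) and 2 were higher (5.20% of all). Lower were Gpc5 (-0.22, SE 0.08) and 1443749_x_at of Slc1a3 (-0.29, SE 0.06). Higher were 1440491_at of Slc1a3 (0.42, SE 0.16) and 1426432_a_at of Slc4a4 (0.24, SE 0.09). Slc1a2 differed by -0.01 (SE 0.05) at its brightest probe set, where knockout differed by -0.23 from NestinCre control and -0.24 from Flox control. Its dimmer probe sets were less even. Knockout differed by -0.60 from NestinCre control and -0.30 from Flox control at 1439940_at, and by -0.47 from NestinCre control and -0.66 from Flox control at 1451627_a_at. Between the controls none of the 31 passed adjustment (limma adjusted p from 0.378), and 0% of all probe sets did.

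**Figure D3:**
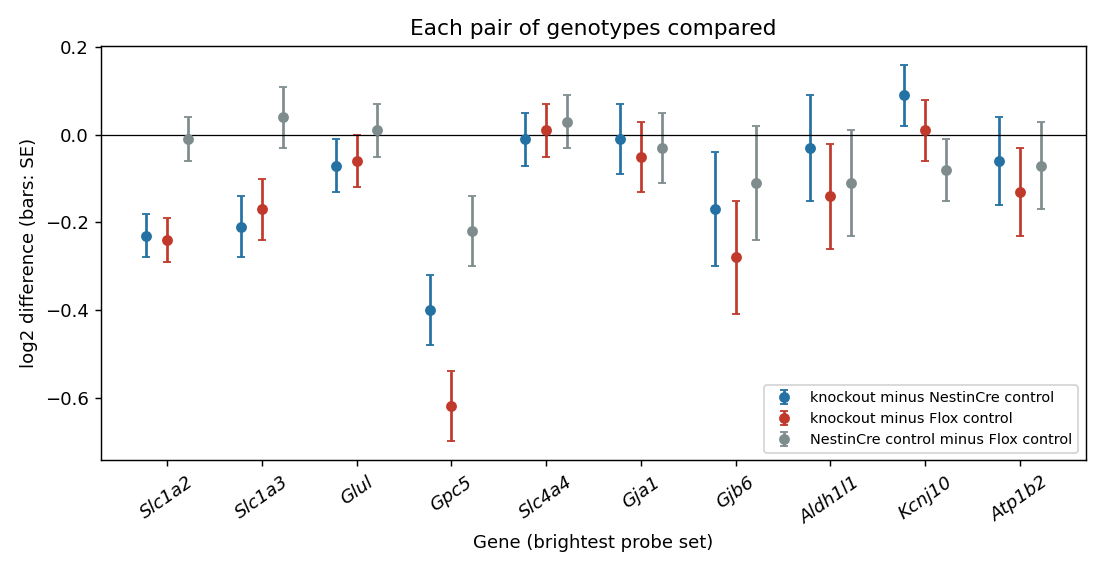
Log2 difference at the brightest probe set of each gene for knockout minus NestinCre control (blue), knockout minus Flox control (red) and NestinCre control minus Flox control (grey), with bars for the SE. Slc1a2 and Slc1a3 are low in both knockout comparisons and near 0 between the controls. Gpc5 is below 0 in all 3, and by smaller amounts so are Gja1, Gjb6, Aldh1l1 and Atp1b2.

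Other astrocyte genes were taken from 5 lists, each by the brightest probe set of a gene. The share of all 18193 genes at an unadjusted p under 0.05 was 6.45% lower and 4.16% higher in knockout against both controls. No gene of these lists passed limma's adjusted threshold, and calls below are at the unadjusted one. Of 18 measured genes for glutamate, glutamine and GABA handling, 3 were lower and 1 higher, with a median log2 difference of -0.04. The lower count was 5 without knockout replicate 2 and 1 without NestinCre control replicate 2 or with the female arrays alone. Lower were Slc6a11, a GABA transporter of astrocytes (-0.27, SE 0.06), and Glud1, the mitochondrial glutamate dehydrogenase (-0.25, SE 0.07). So was Slc7a11, the cystine and glutamate exchanger (-0.45, SE 0.16). Slc7a11 read 273 and 222 in knockout, 256 and 343 in NestinCre control and 357 and 407 in Flox control. Knockout thus overlapped NestinCre control for this gene. Slc1a1, the mainly neuronal relative of Slc1a2 and Slc1a3, was higher (0.14, SE 0.05), with 3650 and 3550 in knockout, 3210 and 3270 in NestinCre control and 3320 and 3280 in Flox control.

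Of 23 genes for gap junctions and ion or water transport, 1 was lower and 1 higher, with a median of -0.04. Without knockout replicate 2, 4 were lower. Kcnj16, a potassium channel subunit that pairs with the Kcnj10 product, was lower (-0.34, SE 0.12), and its values of 1030 and 831 in knockout, 1070 and 1260 in NestinCre control and 1140 and 1220 in Flox control show knockout replicate 2 furthest down. Aqp4, the water channel of astrocyte endfeet, was higher (0.25, SE 0.06), with 6380 and 6030 in knockout, 5330 and 5690 in NestinCre control and 4870 and 4970 in Flox control. Gjc1 at -0.17 (SE 0.07) and Hepacam at -0.29 (SE 0.12) did not reach the unadjusted threshold. Among the 5 other glypicans, Gpc1 (-0.14, SE 0.05) and Gpc3 (-0.16, SE 0.06) were lower, Gpc6 (-0.14, SE 0.10) and Gpc2 (-0.04, SE 0.12) were not called, and the median was -0.14. Without knockout replicate 2 the count was 1, and without any other single array it was 0.

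More genes were lower in the lists of metabolism and identity. Of 28 genes for folate, lipid and sugar metabolism, 11 were lower and 0 higher, with a median of -0.15. Among them were Phgdh, the first enzyme of serine synthesis (-0.69, SE 0.08), Gldc of the glycine cleavage system (-0.76, SE 0.14), Ppp1r3c, a glycogen-targeting phosphatase subunit (-0.51, SE 0.06), and Acsl6, which activates long-chain fatty acids (-0.24, SE 0.04). Phgdh read 1580 and 1760 in knockout, 2630 and 2570 in NestinCre control and 2970 and 2610 in Flox control. The gap between knockout and controls was wider than the spread of any group. Ppp1r3c differed by -0.32 (SE 0.07) between knockout and NestinCre control and by -0.37 (SE 0.07) between NestinCre control and Flox control. Between the controls Phgdh differed by -0.10, Gldc by -0.26 and Acsl6 by 0.00. With the female arrays alone 6 of the 28 were lower.

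Of 26 astrocyte identity and surface genes, 9 were lower and 1 higher, with a median of -0.16. Mfge8, a secreted protein that bridges to phagocytes, read 840 and 1120 in knockout, 2260 and 2210 in NestinCre control and 2680 and 2710 in Flox control (-1.34, SE 0.12; limma adjusted p = 0.0946). Chrdl1, a BMP antagonist secreted by astrocytes, read 130 and 198 in knockout, 365 and 354 in NestinCre control and 587 and 461 in Flox control (-1.43, SE 0.20; limma adjusted p = 0.176). Knockout was far below both controls for each. Cxcl14, a chemokine (-0.45, SE 0.05), and Cldn10, a claudin (-0.36, SE 0.09), were also lower. Ednrb, an endothelin receptor gene, was higher (0.17, SE 0.06). Cxcl14 differed by -0.30 (SE 0.06) between knockout and NestinCre control and by -0.31 (SE 0.06) between NestinCre control and Flox control. Between the controls Mfge8 differed by -0.27, Chrdl1 by -0.53 and Cldn10 by -0.03. Without knockout replicate 1, or with the female arrays alone, the lower count was 4, and it was 6 without NestinCre control replicate 1 or without Flox control replicate 1.

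**Figure D4:**
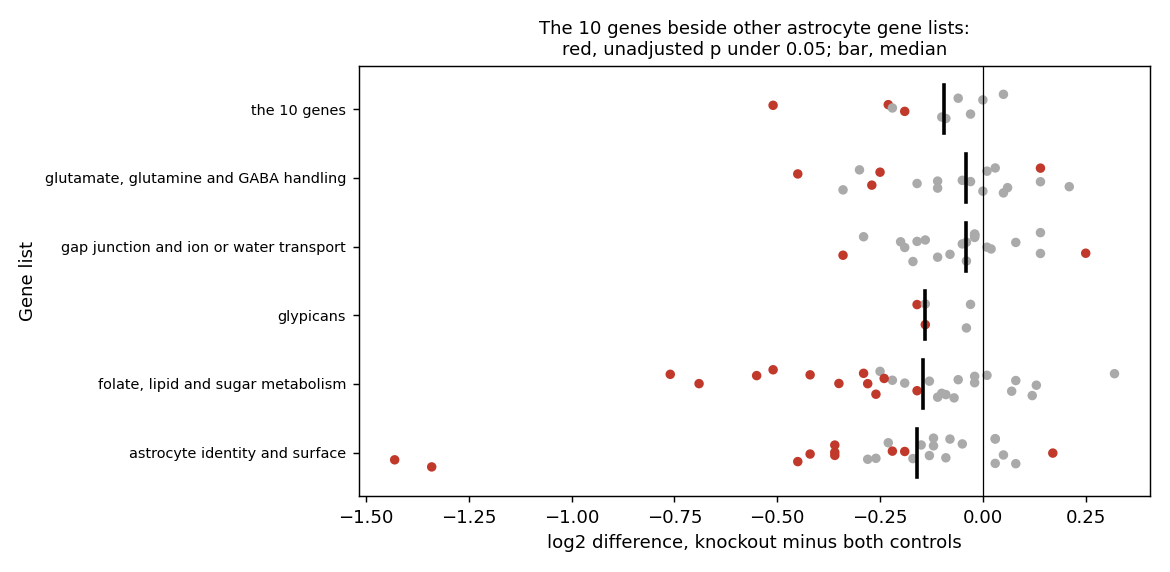
Log2 difference of knockout minus both controls at the brightest probe set of each gene (points) in the set of 10 and in the 5 other lists, with vertical bars at the medians, which run from -0.16 to -0.04. Red marks an unadjusted p under 0.05. The 2 points furthest to the left are Mfge8 and Chrdl1.

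Markers of other cells and states were read in the same way, and the part they play in these differences was not tested. No gene on these lists read 0 on any array, since deposited intensities on this scale are all above 0. Pericyte and smooth muscle genes were lower for 8 of 12, among them Rgs5 at -2.16 (SE 0.08; limma adjusted p = 0.0263). Their summed intensity was 4441 to 4739 in knockout, 7450 to 7537 in NestinCre control and 7885 to 8313 in Flox control. Choroid plexus and ependymal genes were lower for 5 of 10 (Kl, Clic6, Kcnj13, Otx2 and Rarres2), with sums of 14407 to 14747 in knockout, 15240 to 16351 in NestinCre control and 15660 to 15735 in Flox control. Microglial genes were higher for 6 of 13, with sums of 20927 to 20965 in knockout, 17588 to 17771 in NestinCre control and 17580 to 19004 in Flox control. Of 14 reactive astrocyte genes 5 were higher (Gfap, Serpina3n, Cp, Cxcl10 and H2-D1) and 1, Steap4, was lower. Sums were 11693 to 12408 in knockout, 8583 to 8831 in NestinCre control and 9230 to 9879 in Flox control. The median difference of the 14 was 0.07 against both controls, 0.27 against NestinCre control and -0.05 against Flox control. Serpina3n overlapped Flox control, while Cxcl10 passed adjustment (1.30, SE 0.06; limma adjusted p = 0.0345). Gfap, the astrocyte filament gene on that list, read 3810 and 4300 in knockout, 2240 and 2050 in NestinCre control and 2350 and 2280 in Flox control, the opposite direction to Slc1a2 on the same arrays.

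Oligodendrocyte precursor genes were higher for 3 of 8 (Olig1, Gpr17 and Vcan), with sums of 8753 to 9129 in knockout, 7187 to 7811 in NestinCre control and 7688 to 8769 in Flox control. Of 15 neuronal genes 0 were called, of 9 endothelial genes 0, of 6 pituitary genes 0, and of 11 oligodendrocyte genes 2, Mog and Opalin, were lower. Bergmann glia and cerebellar genes, a list that also holds neuronal genes, had 1 of 10 lower, Pcp2, with a median of -0.09. The summed intensity of the 10 homeostatic genes themselves was 36832 and 36801 in knockout, 39780 and 39075 in NestinCre control and 39821 and 40238 in Flox control. All 10 had a brightest probe set above the median of all probe sets, as had 28 of the 31 probe sets.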

How the data were processed

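Whole-brain total RNA of 6 mouse samples was measured on one-colour arrays, 2 samples in each of 3 groups. Per the labels' protocols, 25 ng of RNA was amplified and labelled with biotin. The authors deposited 1 linear intensity per probe set and array, at most 19400. The submitters' processing notes name GCOS and RMA but give neither versions nor the role of each. RMA gives all arrays a common distribution and compresses differences of dim probe sets. Array medians were 7.32 to 7.36 after log2. The number of arrays limits the precision.

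Of 45101 probe sets, 64 controls were left out. Of the other 45037, 34945 had 1 symbol in the platform annotation, 932 several and 9160 none listed. Log2 of the intensity was tested with limma 3.58.1 in R 4.3.3, with a mean per group over all 6 arrays, eBayes without trend, and Benjamini-Hochberg adjustment over all probe sets at 0.05. Residual degrees of freedom were 3, or 4.94 with the prior. Intervals cover 95%. The lead probe set of a gene has the highest mean log2 value over the 6 arrays. The fit was tested on simulated data before use.

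The members and lists were chosen with earlier results of these data known, so lists get counts and medians and no test. All 10 members were named. From each partner list the 4 genes with the smallest p in knockout against both controls were named. Ednrb and the genes named from the lists of other cells and states were chosen after their values were seen. The alternatives were another normalization, a brightness filter, other eBayes priors, a replicate block, 1 probe set per gene, a pseudocount of 16, sex as a covariate, female arrays alone and each array left out. Replicate numbers were not taken as pairs in the main fit.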

Additional observations from a re-analysis of the deposited data

How the results depend on the processing

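The 8 probe sets of Slc1a2, Slc1a3 and Gpc5 that were lower in knockout against both controls stayed below 0 under every alternative run, but not all kept an unadjusted p under 0.05. The brightest probe set kept it in 15 of 16 alternatives for Slc1a2, 11 of 16 for Slc1a3 and 16 of 16 for Gpc5. With the female arrays alone 1 of these 3, Gpc5, kept it, and with bright probe sets alone Slc1a3 lost it. The other 5 probe sets kept it in 13 to 15 of 15. Against Flox control the brightest probe set of Slc1a3 reached it in 4 of 17. With 1 probe set per gene the lower count was 3 against both controls, 3 against NestinCre control, 2 against Flox control and 1 between the controls, since at most 10 probe sets of the set are then tested. With the female arrays alone, where the spread comes from the 2 Flox control arrays, these counts were 5, 4, 3 and 0. The count between the controls was also 1 after a repeated quantile normalization, with bright probe sets alone, with an intensity trend, with and without robust eBayes, and with sex as a covariate. Leaving out 1 array gave 6 to 9 against both controls, 5 to 9 against NestinCre control, 5 to 6 against Flox control and 1 to 3 between the controls. The median log2 difference of the 10 genes then ran from -0.18 to -0.05, from -0.16 to -0.04, from -0.19 to -0.11 and from -0.06 to -0.01 for the same comparisons. With sex as a covariate it was -0.07 against Flox control.

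Replicate numbers were not taken as pairs in the main fit. Differences of replicate 1 minus replicate 2 correlated at -0.31 between knockout and NestinCre control, -0.24 between knockout and Flox control and 0.19 between the controls. The 2 male arrays, knockout replicate 1 and NestinCre control replicate 2, correlated at 0.995, and the 2 knockout arrays at 0.993. What the arrays share across groups was not tested. With the replicate block, 8 probe sets were lower against both controls, 9 against NestinCre control, 7 against Flox control and 1 between the controls.

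Limma adjusted p fell under 0.05 with an intensity trend and robust eBayes for Gpc5 against Flox control (0.0481), and against both controls for Mfge8 (0.00313), Phgdh (0.0150) and Chrdl1 (0.0186). Other alternatives also gave adjusted p under 0.05 against both controls, among the members and named list genes only for Mfge8, Phgdh or Chrdl1. The counts and values of the 5 other astrocyte lists were run under these alternatives after the data had been seen.

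Sign changes occurred only where the reported difference lay between -0.11 and 0.04, and the cause was not tested. With sex as a covariate, the difference between the controls was 0.02 for Aldh1l1, 0.00 for Atp1b2 and -0.01 for Slc4a4, and knockout against Flox control was 0.00 for Kcnj10 and -0.02 for Slc4a4, which was also -0.02 against both controls. With the female arrays alone, the difference between the controls was 0.01 for Aldh1l1, 0.02 for Atp1b2 and -0.02 for Slc4a4. Knockout then differed by -0.01 from Flox control, 0.01 from NestinCre control and 0.00 from both for Slc4a4, and by 0.06 from both for Gpc2. Centred on array medians, Glul was -0.01 between the controls, Kcnj10 -0.01 and Slc4a4 -0.01 against Flox control, and Slc4a4 -0.01 against both. Slc1a2 was 0.01 between the controls after quantile normalization.

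With 1 array left out, knockout against both controls ran from -0.22 to 0.04 for Aldh1l1, from -0.12 to 0.06 for Gja1, from -0.03 to 0.03 for Slc4a4 and from -0.13 to 0.06 for Gpc2. Against NestinCre control it ran from -0.16 to 0.09 for Aldh1l1, from -0.16 to 0.03 for Atp1b2, from -0.10 to 0.07 for Gja1 and from -0.06 to 0.03 for Slc4a4. Against Flox control it ran from -0.13 to 0.04 for Gja1, from -0.06 to 0.09 for Kcnj10 and from -0.01 to 0.04 for Slc4a4. Between the controls it ran from -0.23 to 0.01 for Aldh1l1, from -0.16 to 0.02 for Atp1b2, from -0.08 to 0.02 for Gja1, from -0.03 to 0.05 for Glul, from -0.04 to 0.01 for Slc1a2, from -0.01 to 0.09 for Slc1a3 and from -0.02 to 0.07 for Slc4a4. With 2 arrays per group, differences of the size of these intervals are not resolved.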
